A study of Mus musculus with 12 samples.

Results

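The baseline expression of Tlx-intact mouse brain glioma was described from 6 bead arrays, 1 per animal, out of 12 in the study. Tlx, now named Nr2e1, encodes a nuclear receptor known for keeping neural stem cells undifferentiated. The 6 arrays were chosen by their labels alone, which give a floxed Tlx gene (f/f), the N-Tva transgene and no Cre (CRE-). These littermates lack Cre, so the floxed Tlx gene stays whole although tamoxifen was given, 2.5 weeks after tumour initiation. The strain is C57BL/6, and the animals were 42, 42, 38, 50, 51 and 46 days old in replicates 1 to 6. N-Tva is a transgene in which the Nestin promoter drives Tva, the receptor of a group of avian retroviruses, so that infection is limited to Nestin-expressing cells. The labels do not say what the virus carried. The genotype labels write the CreERT part with a number that climbs by 1 per animal, from 2 to 7, whereas the design text has CreERT2 throughout. Each array measured RNA of excised tumour tissue, which can hold host brain, vessels and immune cells beside tumour cells. No value of the other 6 animals enters the results below.

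Oligodendrocyte progenitor cells are dividing glial cells that carry the PDGF receptor alpha, Pdgfra, and the transcription factors Olig1, Olig2 and Sox10, and that mature into myelin-forming oligodendrocytes. Gliomas of the proneural kind share this set of genes, while Sox2 and Nes (nestin) mark neural stem and progenitor cells. Growth factors act by binding receptors at the cell surface, and a tumour can make the ligand, the receptor or both. Microglia are the resident macrophages of the brain, and endothelial cells and pericytes form its vessels.

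A probe counted as detected on an array when its deposited detection p-value was below 0.05. Such a p-value is meant to give the chance that background alone reaches a signal as high. Of 45135 probes, 17682 (39.2%) were detected on all 6 arrays, 14480 on 1 to 5 arrays and 12973 on none. These 17682 probes were ranked by their mean unnormalized signal, with rank 1 the brightest, and a gene was placed by its brightest detected probe. The animals named as highest or lowest for a gene are those of the unnormalized signal, while counts of list members with an extreme in 1 animal use normalized log2 values. After normalization a different animal was lowest for Olig1, Olig2, Ccn2, Angpt2 and Rps2 and highest for Bcas1, and both ends differed for Pdgfa. Of 19031 genes with a named probe, 10045 (52.8%) were detected in this way. Of 335 listed lineage, growth factor, stroma, growth and check genes with a probe, 234 (69.9%) were detected. Probes differ in how well they bind, so a rank orders probe signals and does not order transcripts by their number. The arrays had median signals of 134.5 to 155.1 intensity units, and 50.8% to 53.3% of their probes were detected. The mean background implied by the detection p-values lay between 124 and 142 units, with an SD of 5.74 to 6.83 units. Replicate 3 had 130 probes more than 5 background SDs below the background mean, against 21 to 38 on each of the other arrays, and its lowest signal was 66.0 units.

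Mean signals of detected probes ran from 33498 units for Ckb, the brain form of creatine kinase, to 145.9 units at the lower end. The brightest 1% ended at rank 177 with 10352 units, the brightest 10% at rank 1768 with 2116 units and the upper 50% at rank 8841 with 355 units. At rank 13262, 75% of the way down, the mean signal was 211 units.

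The 20 brightest genes held Ckb, the tubulins Tuba1b, Tubb2b and Tubb5, the translation factor Eef1a1 and the ribosomal proteins Rplp1, Rpl23, Rpl41 and Rps29. Atp5b, a subunit of the ATP synthase, and the mitochondrial transcripts CYTB and ND4 were also among them, as were the ferritin chain Fth1, the metallothionein Mt1, Ppia, Ubb-ps, Dbi and Cst3. Ubb-ps is named a pseudogene of ubiquitin B, and its probe may also read the parent gene. Tubb2b is also a member of the neuroblast list, and 2 of the 20 are genes of the oligodendrocyte lineage. Olig1 ranked 33 and gave 23665 ± 1485 units (SD, n = 6 animals), with a lowest, median and highest value of 21877, 23672 and 25500.5. Bcas1, a gene of newly formed oligodendrocytes, ranked 35 with 23414 ± 4476 units. Olig1 varied little between animals, with a log2 SD of 0.10, whereas Bcas1 reached 28234 units in replicate 1 and 16282 in replicate 6.

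**Figure D1:**
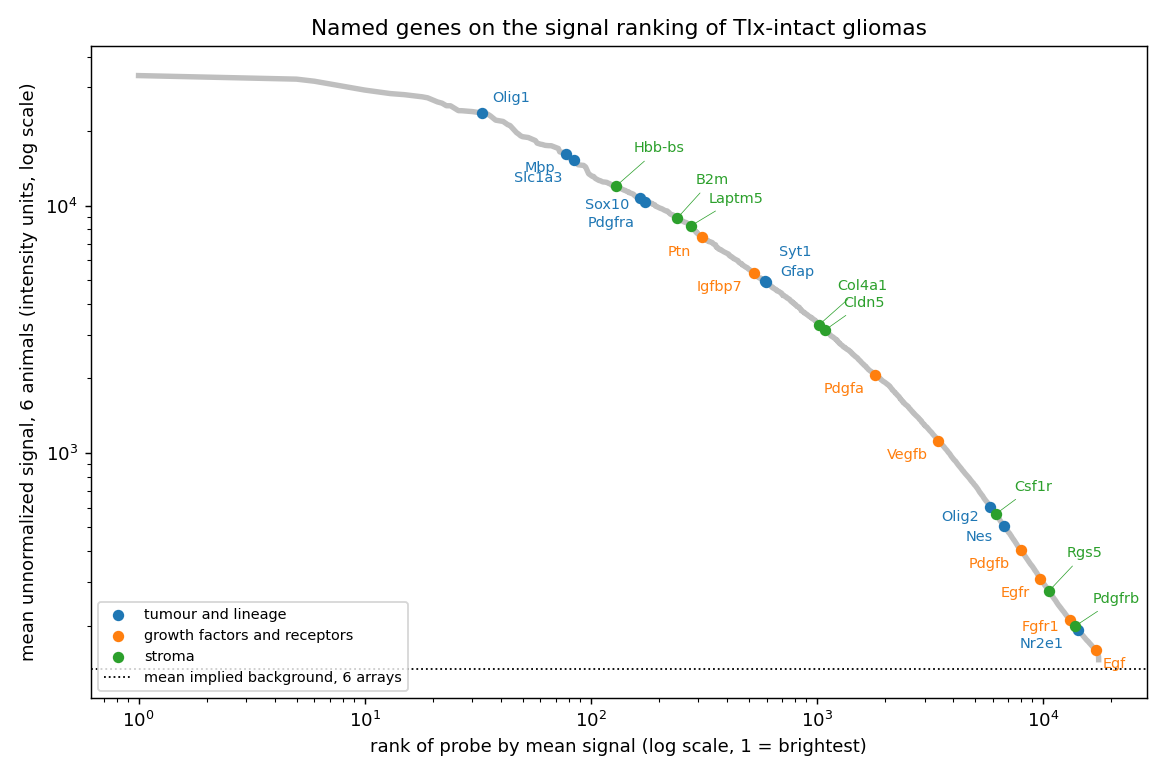
Mean unnormalized signal (intensity units, log scale) of every detected gene against its rank (log scale) in the 6 Tlx-intact gliomas, drawn as a grey curve, with points for named lineage, growth factor and stroma genes. The dotted line is the mean of the 6 implied background levels. Olig1 lies at rank 33 and Pdgfra at rank 174, whereas Olig2, Nes and Nr2e1 lie at ranks 5867, 6751 and 14307.

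Among the 4 genes given as tumour markers, the signal of Pdgfra stood far above those of Olig2, Sox2 and Nes on the ranking. Pdgfra ranked 174, within the brightest 1%, with 8757, 9209, 12403, 14777, 11517 and 5610.4 units in replicates 1 to 6. Its mean was 10379 ± 3209 units (SD, n = 6), and on single arrays it ranked between 102 and 383. Replicate 4 was highest and replicate 6 lowest, 2.63-fold apart. Olig2, the transcription factor that sets the oligodendrocyte lineage, gave 691, 630.3, 877, 430.3, 633 and 385 units in replicates 1 to 6 and ranked 5867. Sox2 ranked 6004 with 585, 575, 832, 529, 619 and 395 units, and Nes, an intermediate filament, ranked 6751 with 539, 584, 669, 536, 412 and 294 units. In unnormalized signal all 3 were highest in replicate 3 and lowest in replicate 6. After normalization Olig2 was lowest in replicate 4, at 8.16 log2 units against 8.27 in replicate 6. Each of the 3 stayed above the implied background in every animal. Sox2 and Nes also had a dimmer probe each, of which that of Sox2 was detected on 4 arrays only.

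Nr2e1 itself was detected on all 6 arrays, close to the lower end. It gave 203, 199, 216, 188, 191 and 160.4 units in replicates 1 to 6, and its rank was 14307. Its lowest value, in replicate 6, was 160.4 units, against an implied background mean of 137 units on that array. The gene labelled intact thus gave a signal above background in each animal.

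Of 20 oligodendrocyte progenitor and proneural genes with a probe, 19 (95%) were detected, against 52.8% of all genes, and 9 of the 19 lay in the brightest 10%, against 13% of all detected genes. Sox10, which controls myelin genes, ranked 165 with 10719 ± 2581 units (SD, n = 6). Gpr17, a receptor of committed progenitors, ranked 362 and was the most variable of the list, with 12523, 6741, 4908, 1907, 10334 and 4287 units in replicates 1 to 6. Replicate 1 was the highest for Gpr17 and replicate 4 the lowest, 6.57-fold apart. The brain matrix proteoglycans Bcan and Ncan ranked 908 and 1169, with 3614 ± 911 and 2956 ± 657 units. The phosphatase Ptprz1 ranked 1508. Nkx2-2, a transcription factor of the lineage, gave 881, 1652 and 2952 units as its lowest, median and highest values. Cspg4, which encodes the progenitor surface proteoglycan NG2, gave 529, 973 and 1759 units. Both were lowest in replicate 6, while Cspg4 was highest in replicate 3 and Nkx2-2 in replicate 1. Dll3, a Notch ligand, was the list's exception, detected on 4 of the 6 arrays at 138 to 178 units.

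The neural stem cell list was lower on the ranking. Of its 18 genes with a probe, 14 (77.8%) were detected, against 52.8% of all genes. 2 of the 14 lay in the brightest 10%, near the 13% of all detected genes. These were Sox9, a transcription factor of stem cells and astrocytes, at rank 1313, and the intermediate filament Vim at rank 1342. Vim gave between 3006 and 3398 units in replicates 1 to 4 but 1478 and 1516 units in replicates 5 and 6. The Notch receptor Notch1 ranked 4555 with 822 ± 218 units (SD, n = 6). Its target Hes5 gave 192, 293 and 469.8 units as lowest, median and highest, and had the largest SD of the list (0.87 log2 units). Bmi1, a Polycomb protein, had the smallest, 0.34. Msi1, Prom1, Pax6 and Sox1 were not detected on all arrays, at mean signals of 132 to 152 units.

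**Figure D2:**
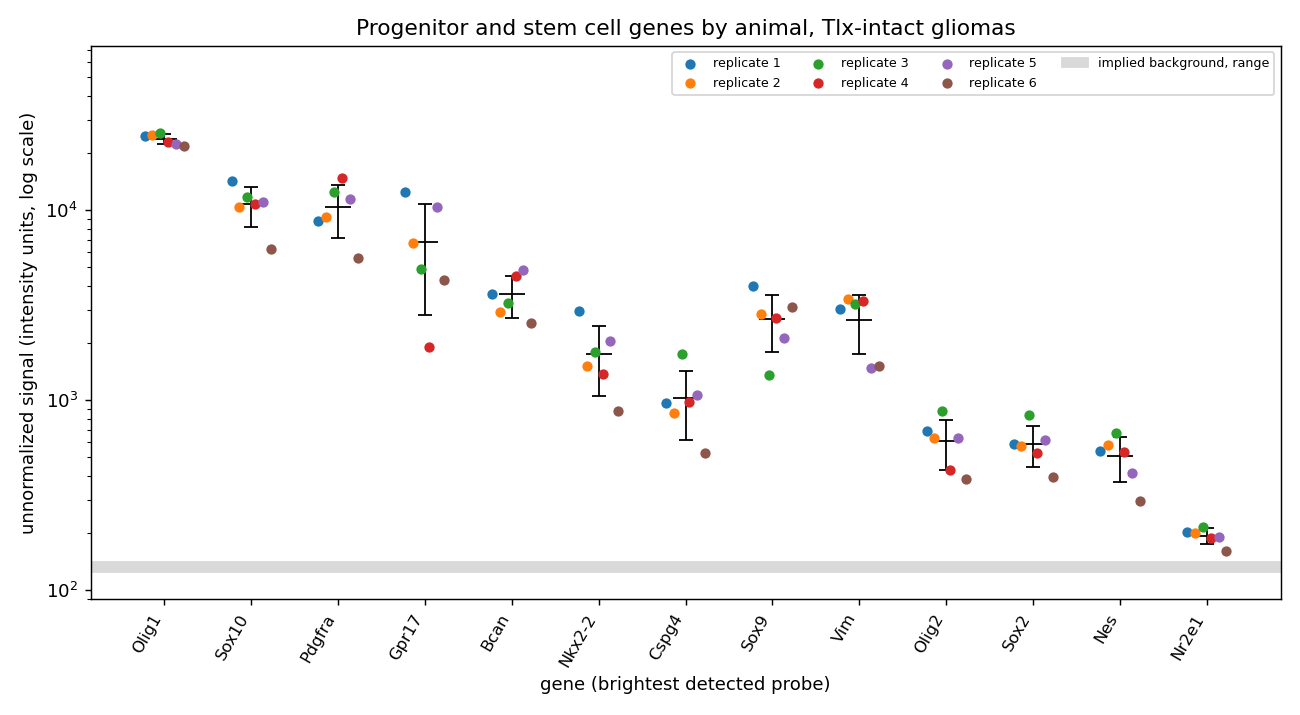
Unnormalized signal (intensity units, log scale) of progenitor and stem cell genes in each of the 6 Tlx-intact animals, with a horizontal mark for the mean and bars for the SD. The grey band spans the implied background means of the 6 arrays. In unnormalized signal replicate 6 is lowest for Olig1, Sox10, Pdgfra, Nkx2-2, Cspg4, Olig2, Sox2, Nes and Nr2e1. After normalization Olig1 and Olig2 are lowest in replicate 4, Olig1 at 14.35 log2 units against 14.53 in replicate 6.

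Genes of mature glia gave some of the brightest signals in the tumours. Of 15 astrocyte genes 14 (93.3%) were detected, and of 14 genes of myelinating oligodendrocytes 11 (78.6%), against 52.8% of all genes. Slc1a3, the glial glutamate transporter, ranked 84 with 15277 ± 4287 units (SD, n = 6), and its highest value was in replicate 1. Gfap, the astrocyte filament, ranked 594 with 2598, 5112 and 7449.6 units as its lowest, median and highest values, lowest in replicate 3 and highest in replicate 4. Gjb6, a gap junction protein of astrocytes, was the most variable, with 732, 1235, 566, 3767, 459 and 2759.5 units in replicates 1 to 6. Replicates 4 and 6 stood above the other 4 animals for Gjb6. Among myelin genes Cldn11, a tight junction protein of myelin, ranked 67 and Mbp, the myelin basic protein, 78, with 17438 ± 3954 and 16217 ± 4500.2 units. Mog, on the outer face of myelin, ranked 3700 and ranged from 412 units in replicate 3 to 2115 in replicate 6. Ugt8a, which makes myelin galactolipids, hardly varied, from 2229 to 2641 units. Mlc1 and Myrf were detected on no array, and Ermn and Aspa on 3.

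Of 15 neuronal genes with a probe, 12 (80%) were detected, against 52.8% of all genes, and the 12 varied widely between animals. Syt1, a calcium sensor of synaptic vesicles, ranked 588 with 4329, 7747, 726, 5981, 2885 and 7986 units in replicates 1 to 6. Stmn2, a tubulin-binding protein of growing axons, gave 997, 2049, 286, 2804, 1006 and 3573 units, and Rbfox3, a splicing factor of mature neurons, 1686, 2269, 326, 1775, 838 and 2308 units. In all 3 genes replicate 3 was lowest and replicate 6 highest. The transporters and enzymes of both main transmitter types were detected, Slc17a7 for glutamate at rank 7402 and Gad1 and Gad2 for GABA at ranks 1502 and 2956. Snap25 and Tubb3, abundant transcripts of neurons, were detected on no array, at 137 ± 4.8 and 133 ± 10 units. The ribosomal protein gene Rpl6 was likewise detected on none, so a probe at background does not show that a transcript is absent. Of 11 neuroblast genes 7 (63.6%) were detected, a share not far above the 52.8% of all genes. Cd24a was detected on no array, Dlx2 on 1, Dlx5 on 2 and Dlx1 on 5, and Igfbpl1 ranked only 16109. Tubb2b, a tubulin of young neurons, was the brightest at rank 22 with 25916 ± 4685 units (SD, n = 6), and had the smallest SD of the list (0.21 log2 units). Sox11, a transcription factor of immature neurons, ranked 1366 and Dcx, a microtubule protein of migrating neuroblasts, 4877.

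For each list and animal, the log2 deviation of every detected member from its mean over the 6 animals was averaged, so that a positive value marks an animal with higher signals of the list. The neuron list ran from 1.22 in replicate 6 to -1.79 in replicate 3, a range of 3.00 log2 units or 8.01-fold, and 1.62 units without replicate 3. 8 of its 12 members were highest in replicate 6 and 11 were lowest in replicate 3. Of all 10045 detected genes, 21.4% were highest in replicate 6 and 20% were lowest in replicate 3. Syt1, Stmn2 and Gad2 belong to 62 probes of many kinds that were low in replicate 3 alone by a gap of over 2 log2 units, whose part in the list's value was not tested. The myelin list had the same extremes, 0.95 in replicate 6 and -0.80 in replicate 3. Its range of 1.75 became 1.02 without replicate 6 and 1.16 without replicate 3. The astrocyte list reached 0.53 in replicate 4 and -0.52 in replicate 3. The progenitor list ran the other way at 1 end, with its lowest value of -0.50 in replicate 6 and its highest, 0.42, in replicate 5. 11 of its 19 members were lowest in replicate 6, against 21.7% of all detected genes. Without that animal the progenitor list's range of 0.92 became 0.58. The stem cell list was also lowest in replicate 6, at -0.40, and its range of 0.66 became 0.42 without it. In bulk tissue, fewer cells of a type and less RNA per cell cannot be told apart, and the part that neuronal and myelin signals play in the other lists was not tested.

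**Figure D3:**
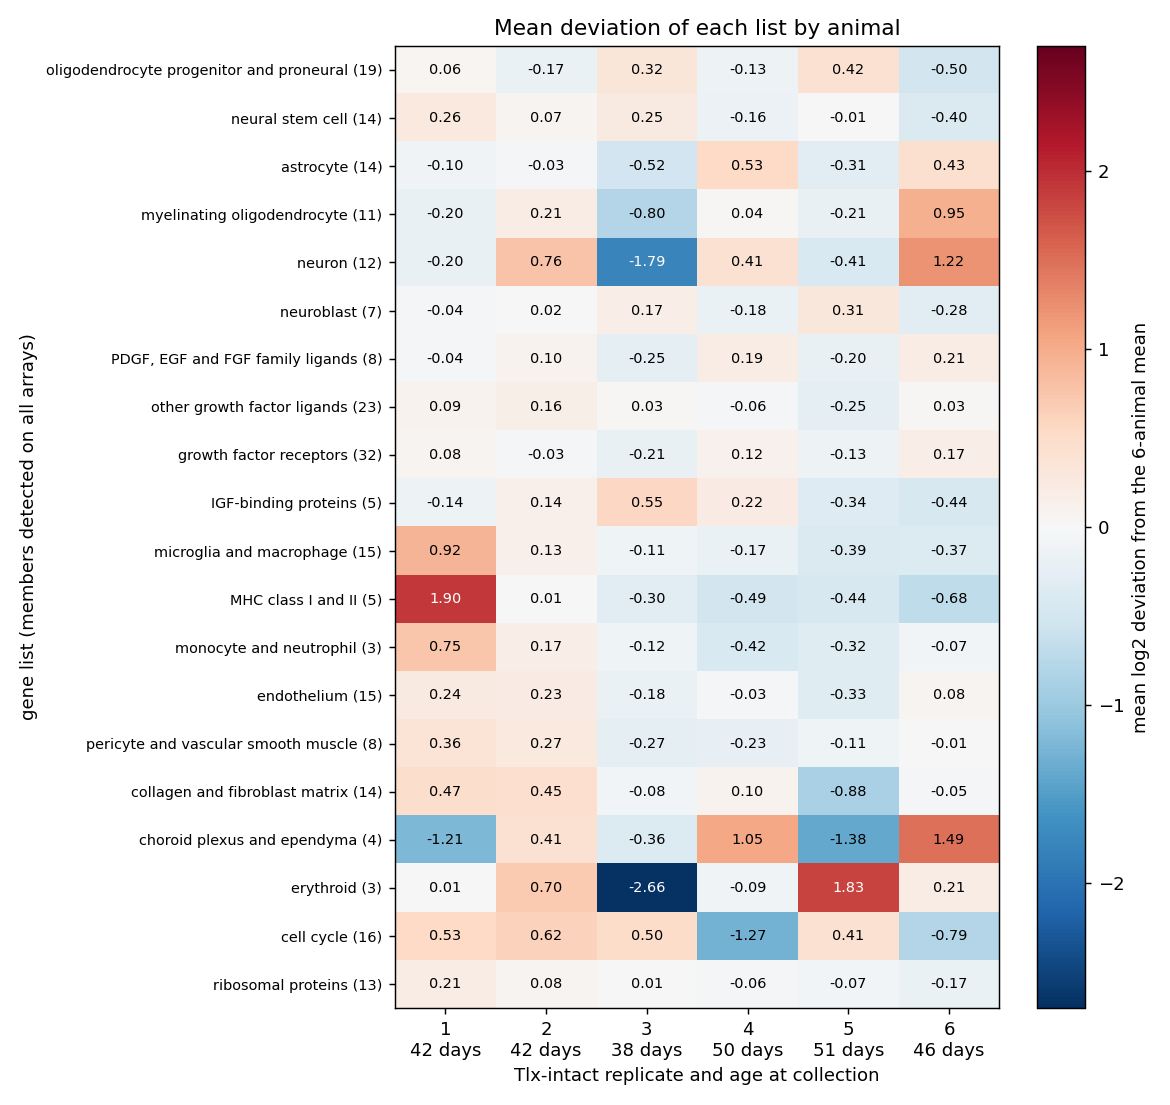
Mean log2 deviation of each gene list from its 6-animal mean, in each Tlx-intact replicate with its age. Red cells are above and blue cells below the mean, and the number of averaged genes stands beside each list's name. The erythroid row spans -2.66 to 1.83 and the neuron row -1.79 to 1.22, whereas the ribosomal row stays between -0.17 and 0.21.

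Of 18 ligands of the PDGF, EGF and FGF families with a probe, 8 (44.4%) were detected in all tumours, a share near the 52.8% of all genes. None of these 8 lay in the brightest 10%, against 13% of all detected genes. On at least 3 of the 6 arrays 13 of the 18 were detected, and 12522 of all 19031 genes. Pdgfa, a ligand of Pdgfra, ranked 1817 with 2418, 2457, 1604, 2536, 1623 and 1814 units in replicates 1 to 6. Its highest and lowest values, in replicates 4 and 3, were 1.58-fold apart. Pdgfb, which binds both PDGF receptors, ranked 7979 with 597, 573, 296, 324, 303 and 342 units. Its 2 highest values were those of replicates 1 and 2. Pdgfc was detected on 5 arrays and Pdgfd on 1. Hbegf, a ligand of the EGF receptor, ranked 7018 with 411, 451 and 642 units as lowest, median and highest. Egf ranked 17178, among the dimmest 10% of detected probes, at 159.5 ± 13.2 units. The neuregulins Nrg1 and Nrg3, ligands of Erbb receptors, gave 209 ± 20.8 and 189 ± 13.1 units. Fgf1 ranked 9464 and Fgf10 16039, whereas Fgf2 was detected on 1 array and Fgf18 on none.

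Of 42 growth factor receptors 32 (76.2%) were detected, against 52.8% of all genes, and Pdgfra had the highest rank. The next receptors on the ranking were Ntrk2, the BDNF receptor, at 850, Axl, a receptor of Gas6, at 1204, and Bmpr2 of the BMP pathway at 1462. Ntrk2 gave 3796 ± 608 units and Axl 2898 ± 896 units (SD, n = 6), and Axl was highest in replicate 1. Pdgfrb, the PDGF receptor of pericytes, ranked 13898 with 265, 227, 176, 186, 168 and 175 units in replicates 1 to 6, and was highest in replicate 1. Egfr, altered in many human gliomas, ranked 9771 with 310.3 ± 58.2 units, and this brightest probe was highest in replicate 4. Other Egfr probes detected on all arrays, at ranks 10291 and 16894, were highest in replicates 2 and 3. Of the relatives of Egfr, Erbb2 was detected on 4 arrays, Erbb3 on 1 and Erbb4 on none. Among FGF receptors, Fgfr2 ranked 3450, Fgfr3 9757 and Fgfr1 13252, while Fgfr4 was not detected on any array. Fgfr2 spanned 510.1 units in replicate 3 to 2022 in replicate 6, the same extremes as the neuron and myelin lists. Met, the receptor of Hgf, was detected on no array, and Hgf itself on 2. The receptor list as a whole kept within a range of 0.39 log2 units between animals.

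Of the IGF system, Igf2 was the brighter ligand on the ranking, at 2186 against 11964 for Igf1. Igf2 gave 2245, 2369.8, 732, 2008, 550.1 and 2775 units in replicates 1 to 6, with replicates 3 and 5 below the other 4. Igf1 gave 412, 305, 168, 163, 143 and 234 units, highest in replicate 1. The receptor Igf1r ranked 5728 with 627 ± 144 units (SD, n = 6), Insr 3866 and Igf2r, which clears Igf2, 9247. Of the IGF-binding proteins, which hold the ligands outside cells, Igfbp7 and Igfbp5 were brightest. They ranked 527 and 533, with 5342 ± 1757 and 5272 ± 1549.8 units. Igfbp3 varied most, from 644 units in replicate 1 to 2564 in replicate 3, and Igfbp2 was highest in the same animal. Igfbp1 was detected on 1 array and Igfbp6 on 5.

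Of 32 other growth factor ligands, 23 (71.9%) were detected, against 52.8% of all genes. Ptn, a heparin-binding factor, was the brightest at rank 310 with 8052, 7863, 7846, 8299, 7538 and 4975 units in replicates 1 to 6. Replicate 6 lay below the other 5 animals, which were close together. Mdk, its relative, ranked 2165 with 1548, 1805 and 2024 units as lowest, median and highest. Ccn2, a matricellular protein, ranked 1065 and ranged from 1272 units in replicate 6 to 5910.5 in replicate 4. Vegfa, the main vessel growth factor, ranked 1723 with 1249, 2177 and 2818 units as lowest, median and highest, and Angpt2, which loosens vessels, ranked 1784. Both were highest in replicate 3 and lowest in replicate 6. Of their receptors, Flt1 ranked 4815 and Tek 10641, while Kdr ranked 15959. Bmp4 varied most of the list, with 1232, 409, 622, 326, 1389.9 and 308 units in replicates 1 to 6, and replicates 1 and 5 stood above the rest. Averaged over all 23 members, the list spanned 0.40 log2 units between animals, and by 0.22 without replicate 5.

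**Figure D4:**
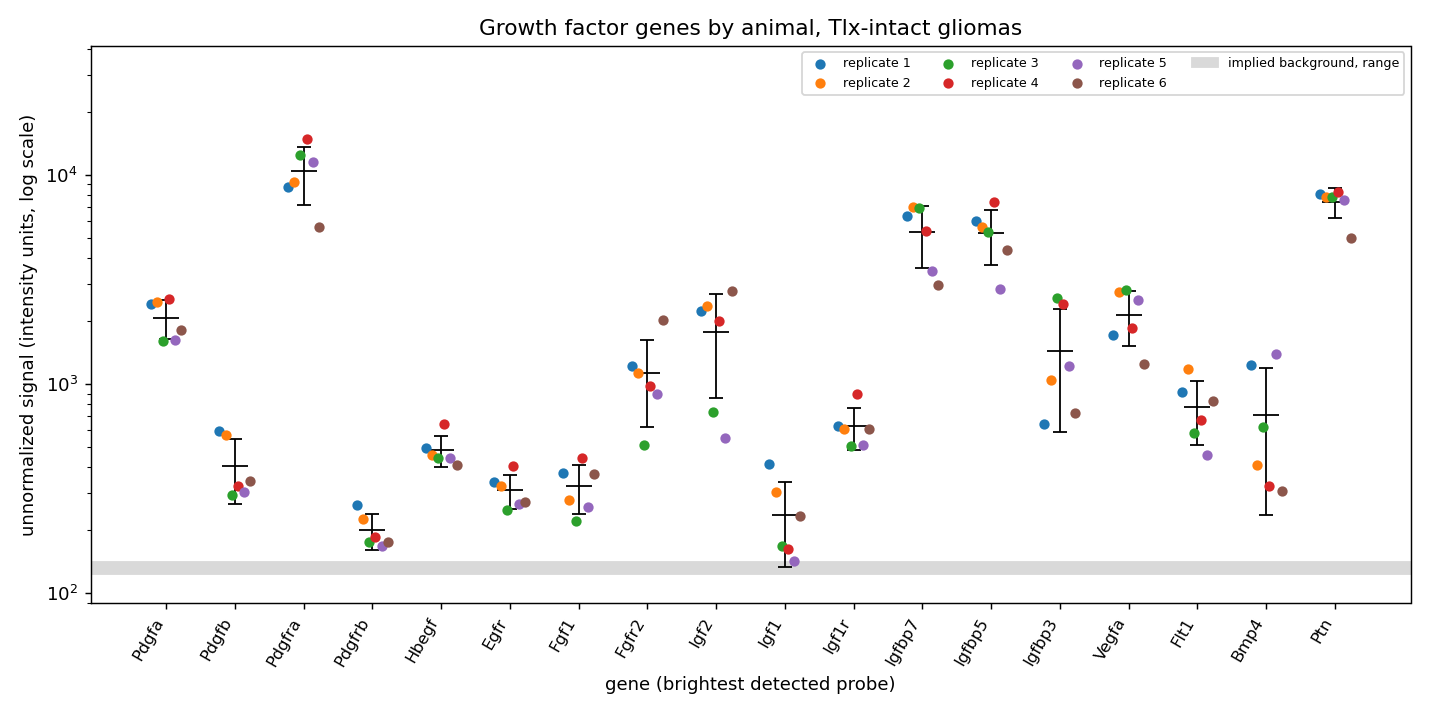
Unnormalized signal (intensity units, log scale) of growth factor, receptor and binding protein genes in each of the 6 Tlx-intact animals, with a mark for the mean and bars for the SD. The grey band spans the implied background means. Pdgfra, Ptn, Igfbp7 and Igfbp5 lie highest, while Pdgfrb and Igf1 approach the band in several animals.

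Most genes of microglia and macrophages were detected in every tumour, and most of those were highest in replicate 1. Of 18 with a probe, 15 (83.3%) were detected, against 52.8% of all genes. The exceptions were Ptprc, detected on 1 array at a mean of 136 units, Fcer1g on 4 and Mrc1 on 5. Mrc1 was highest in replicate 4. 13 of the 15 had their highest value in replicate 1, against 17.4% of all detected genes. Laptm5, a lysosomal membrane protein of blood cells, ranked 277 with 15272, 9108, 6997, 7341, 6010.2 and 4861 units in replicates 1 to 6. The complement gene C1qb ranked 1047 with 1457, 2186 and 8162 units as lowest, median and highest. Without replicate 1, C1qb ranked 1595. Csf1r, the receptor that microglia need to survive, ranked 6202 with 567 ± 166 units (SD, n = 6). P2ry12, a receptor of resting microglia, varied least, from 915 to 1459.6 units, and was not highest in replicate 1. The list's deviation was 0.92 in replicate 1 and between -0.39 and 0.13 in the others, so its range of 1.31 became 0.53 without replicate 1.

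The MHC genes, which display peptides to T cells, showed the widest gap between replicate 1 and the rest among the 20 lists with detected members. Of 8 with a probe, 5 (62.5%) were detected, near the 52.8% of all genes. Class I was detected throughout, with B2m, its light chain, at rank 242 and H2-D1 at 731. B2m gave 21287, 8811, 6584, 7483, 4851 and 4407 units in replicates 1 to 6, and its rank became 389 without replicate 1. The class II genes Cd74, the invariant chain, and H2-Ab1 were detected on all arrays. Cd74 gave 3474, 740.0, 309, 314, 463 and 360.4 units in replicates 1 to 6, and H2-Ab1 gave 2892, 702, 294, 270.1, 334 and 284 units. Without replicate 1 their ranks moved from 4036 and 4703 to 7448 and 8322. H2-Aa gave 1058, 345, 124, 142, 129 and 143 units and was detected on 2 arrays, and H2-Eb1 gave 1439, 409, 141, 139, 128 and 147 units and was detected on 3. All 4 class II genes were highest in replicate 1 and next highest in replicate 2. On the array, 99 probes were high in replicates 1 and 2 alone, by a gap of over 2 log2 units, those of H2-Aa and H2-Eb1 among them. The part of this pattern in the class II values was not tested. The list's deviation was 1.90 in replicate 1 against -0.68 to 0.01 in the others, and its range of 2.58 became 0.70 without that animal.

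The promoters of H2-Aa and H2-Eb1 are shown because these class II genes shared the same order of replicates 1 and 2. The sequences are RefSeq's, on the build GRCm38.p6, and run from 250 bases before the start of the gene to 50 bases after it. H2-Aa lies on the minus strand at chr17:34287774-34288073 and H2-Eb1 on the plus strand at chr17:34305617-34305916. The capitals mark CTGATTGG, a form of the Y box known from class II promoters, searched on both strands.
H2-Aa: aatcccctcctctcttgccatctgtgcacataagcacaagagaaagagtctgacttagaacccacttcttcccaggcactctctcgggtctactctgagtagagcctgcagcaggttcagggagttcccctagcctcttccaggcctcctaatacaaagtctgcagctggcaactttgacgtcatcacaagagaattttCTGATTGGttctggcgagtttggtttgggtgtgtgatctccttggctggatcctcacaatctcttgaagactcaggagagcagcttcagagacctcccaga
H2-Eb1: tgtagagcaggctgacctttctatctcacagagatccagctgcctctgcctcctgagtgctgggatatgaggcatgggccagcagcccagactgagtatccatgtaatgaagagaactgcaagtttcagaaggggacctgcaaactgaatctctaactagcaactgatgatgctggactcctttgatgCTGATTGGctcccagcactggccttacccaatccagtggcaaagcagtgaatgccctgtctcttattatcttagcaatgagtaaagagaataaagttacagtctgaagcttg
Each promoter held 1 match, beginning 51 bases before the start of H2-Aa and 62 bases before that of H2-Eb1. Of 27025 promoters of the same length, 4.31% held this motif. A match describes the sequence only.

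No gene of 11 for lymphocytes and NK cells was detected on all 6 arrays, against 52.8% of all genes. On at least 3 arrays 4 of the 11 were detected, and 12522 of all 19031 genes. Cd3e, a chain of the T cell receptor complex, was detected on 5 arrays at 138 to 216 units, and Cd8a and Gzmb on none. Of 9 monocyte and neutrophil genes 3 (33.3%) were detected on all 6 arrays, against 52.8% of all genes, and 7 on at least 3. The 3 were Plac8, Csf3r and Elane, at ranks 12725, 13995 and 16843. Plac8 was highest in replicates 1 and 2, at 377 and 306 units, against 145 to 178 units in the others. The list's range of 1.17 log2 units became 0.59 without replicate 1.

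Of 16 endothelial genes 15 (93.8%) were detected in all tumours, against 52.8% of all genes. Cldn5, the tight junction protein of the blood-brain barrier, ranked 1088 with 3136 ± 1057 units (SD, n = 6), highest in replicate 1. Slc2a1, the barrier's glucose transporter, ranked 1233 and was highest in replicate 4, at 5252 units against 1824 to 2782 in the others. Pecam1 ranked 9513 and Vwf 5059, and Vwf varied most of the list, from 437 to 1174 units. The endothelial range was 0.57 log2 units. Of 12 pericyte and smooth muscle genes 8 (66.7%) were detected, not far above the 52.8% of all genes, with Higd1b at rank 10438 and Rgs5 at 10648. Acta2, smooth muscle actin, was brighter than the rest of the list, at rank 1347, with 4365, 6574, 1229, 948, 920.1 and 1823 units in replicates 1 to 6. It was far higher in replicates 1 and 2, and its rank became 2078 without replicate 2.

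Of 16 collagen and fibroblast matrix genes, 14 (87.5%) were detected, against 52.8% of all genes. Sparc, a collagen-binding protein that brain glia and vessels also make, ranked 473. Its brightest probe gave 5731 ± 1522 units (SD, n = 6). The basement membrane collagens Col4a1 and Col4a2 ranked 1027 and 1799. The fibrillar collagens were low, with Col3a1 at rank 14044, Col1a2 at 15516 and Col1a1 detected on 5 arrays only. Dcn, a proteoglycan of fibroblasts, ranked 1929 with 3353, 2769, 1609.7, 2076, 502 and 1579 units in replicates 1 to 6. Replicate 5 was lowest for 13 of the 14 genes, against 9.6% of all detected genes. The list's deviation in replicate 5 was -0.88, against -0.08 to 0.47 elsewhere. Without replicate 5 the range of 1.36 became 0.55.

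Single genes of choroid plexus and blood differed between animals by large factors. Ttr, which choroid plexus cells secrete, ranked 228 with 1406, 14575, 5019, 16042, 425 and 17641 units in replicates 1 to 6, a 41.5-fold span. Replicates 2, 4 and 6 stood far above replicates 1 and 5, with replicate 3 between them. Clic6 and Aqp1, other genes of the choroid plexus, were also highest in replicates 4 and 6, at ranks 6732 and 11242. Of 9 such genes 4 (44.4%) were detected, near the 52.8% of all genes. On at least 3 arrays 8 of the 9 were detected, and 12522 of all 19031 genes. The haemoglobin genes Hbb-bs, Hbb-bt and Hba-a1 ranked 129, 133 and 154. Hba-a1 gave 7788, 11494, 1408, 9238, 27567 and 9282 units in replicates 1 to 6, lowest in replicate 3 and highest in replicate 5. The brightest probes of Hbb-bs and Hbb-bt had the same extremes, and as close copies their probes may read each other's transcripts. Another probe of each was highest in replicate 2, at 14342.5 units for Hbb-bs and 12983 for Hbb-bt. Their remaining probes detected on all arrays were highest in replicate 5. Without replicate 5 the ranks of Hbb-bs, Hbb-bt and Hba-a1 became 240, 268 and 297. The erythroid range of 4.49 log2 units became 1.92 without replicate 3. Replicate 3 thus had the lowest deviation of the neuron, myelin, astrocyte and erythroid lists. It was also lowest for the PDGF, EGF and FGF ligands (-0.25), the receptors (-0.21) and the pericyte and smooth muscle list (-0.27).

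Cell cycle genes differed between animals as a block. Of 19 with a probe, 16 (84.2%) were detected, against 52.8% of all genes. 15 of the 16 had an SD among the largest 10% of probes of like signal, against 10.6% of all 10045 detected genes. Mcm4, part of the helicase that opens DNA for replication, ranked 1100 with 3928, 4270.2, 3138, 1457, 3891 and 2007 units in replicates 1 to 6. Cdc20, an activator of the mitotic ubiquitin ligase, ranked 2710 with 2399.9, 2038, 1675, 879, 1137 and 488 units. Plk1, a mitotic kinase, ranked 3965 with 1505, 1364, 1220.4, 536, 820.2 and 331 units. Replicates 4 and 6 were the 2 lowest in each of these genes. Top2a, which untangles DNA, gave 393 and 378 units in replicates 4 and 6 and 993 to 1331 in the others. The list's deviation was -1.27 in replicate 4 and -0.79 in replicate 6, and 0.41 to 0.62 in the other 4 animals. In replicates 4 and 6 the astrocyte list stood at 0.53 and 0.43, the choroid plexus list at 1.05 and 1.49 and the neuron list at 0.41 and 1.22. The part of these signals in the cell cycle values was not tested. Of the 16 cell cycle genes, 11 were lowest in replicate 4, collected at 50 days, against 21.3% of all detected genes. Replicate 5, collected at 51 days, had a deviation of 0.41, and the part of age was not tested.

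The promoters of 3 mitotic genes are shown as examples from the cell cycle list, whose lowest deviations were in replicates 4 and 6. Those of other members low in these animals, such as Top2a, are not shown. They are RefSeq's on GRCm38.p6, Plk1 on the plus strand at chr7:122159185-122159484, and on the minus strand Aurka at chr2:172370521-172370820 and Cdc20 at chr4:118437294-118437593. Capitals mark TTTGAA, the core of the CHR element of cell cycle promoters, searched on both strands.
Plk1: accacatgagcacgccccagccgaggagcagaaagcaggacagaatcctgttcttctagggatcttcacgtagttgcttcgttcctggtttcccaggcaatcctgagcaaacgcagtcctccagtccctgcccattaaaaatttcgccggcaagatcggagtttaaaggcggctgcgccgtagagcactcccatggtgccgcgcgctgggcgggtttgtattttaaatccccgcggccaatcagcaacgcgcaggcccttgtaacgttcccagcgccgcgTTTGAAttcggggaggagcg
Aurka: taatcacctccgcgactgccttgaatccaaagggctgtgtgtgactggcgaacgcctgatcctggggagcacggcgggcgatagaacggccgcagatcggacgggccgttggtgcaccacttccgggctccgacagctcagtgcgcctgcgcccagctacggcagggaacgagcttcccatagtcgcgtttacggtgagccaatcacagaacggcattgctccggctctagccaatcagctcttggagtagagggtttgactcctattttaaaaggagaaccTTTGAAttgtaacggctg
Cdc20: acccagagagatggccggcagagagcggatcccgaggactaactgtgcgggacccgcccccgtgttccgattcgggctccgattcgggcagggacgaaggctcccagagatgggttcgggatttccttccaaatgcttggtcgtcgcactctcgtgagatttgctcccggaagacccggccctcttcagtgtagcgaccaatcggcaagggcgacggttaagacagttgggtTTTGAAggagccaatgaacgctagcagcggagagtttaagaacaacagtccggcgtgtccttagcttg
The match began 30 and 32 bases after the start for Plk1 and Aurka, and 18 bases before it for Cdc20. Of 27025 promoters 18.1% held these 6 letters, so a match is common.

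Ribosomal protein genes gave high signals with little spread between animals. Of 14 with a probe, 13 (92.9%) were detected, against 52.8% of all genes. Of the 13, 11 lay in the brightest 10%, against 13% of all detected genes. None had an SD among the largest 10% of its signal band, against 10.6% of all detected genes. Rps24 gave 15668, 18660.2 and 20739.7 units as lowest, median and highest, a log2 SD of 0.07. Rps2 was the list's most variable, from 11628 units in replicate 6 to 30442 in replicate 1. The list's range was 0.38 log2 units, and 0.25 without replicate 1. Of 13 genes typical of tissues outside the brain, none was detected on all 6 arrays, against 52.8% of all genes. Alb, the liver's serum albumin, gave 130.3 to 153 units, and Ckm of skeletal muscle 120.2 to 143.

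Over all 17682 detected probes the median SD between animals was 0.322 log2 units after background correction and quantile normalization, and the 5th and 95th percentiles were 0.126 and 0.836. The median was 0.219 in the brightest 10% of probes and 0.386 at ranks 14147 to 15914. 489 probes (2.77%) had an SD above 1. Of the neuron list 11 of 12 genes had an SD among the largest 10% of their signal band, against 10.6% of all detected genes. Each array is a separate animal, so the SD holds biological and technical spread together.

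The 12 genes of the upper 50% of the ranking with the largest SD fell into a few shapes. Slc17a6, a vesicular glutamate transporter, gave 562, 4603, 252, 5335, 697 and 7413 units in replicates 1 to 6, and its second probe ranked 1160 with the same order of extremes. Scg2 and Cck, a granule protein and a peptide of neurons, and Cpne9 were likewise highest in replicate 6. Ttr belongs here too. Dennd2a, a regulator of Rab proteins, gave 1463, 1239.8, 157, 159, 148 and 179 units. Necap2, Fgfr1op2, Pisd-ps3 and Tesk1 had this same shape, with replicates 1 and 2 high and the other 4 low. Tomm22, a mitochondrial import receptor, was high in replicates 1 and 2, intermediate in replicate 3 at 756 units and at 179 to 196 units in the others. A second probe of Necap2 gave 873, 628, 591, 644, 529.6 and 457 units, without such a gap. Gdpd3 ran the other way, with 206 and 170.5 units in replicates 1 and 2 and 882 to 1668 in the others.

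By their brightest probe, the 6 steadiest genes of the upper 50% were Tubb4b, Dym, Fam160a2, Ppp2r5d, Eif4h and Elp2, with log2 SDs of 0.02 to 0.04. Other probes detected on all arrays had larger SDs, 0.25 for Fam160a2, 0.13 for Elp2 and 0.13 to 0.27 for Ppp2r5d. The small SDs thus belong to single probes. Tubb4b, a tubulin, gave 6135 ± 604 units (SD, n = 6) and Eif4h, a translation factor, 9121 ± 982 units. Before normalization their values still differed 1.28-fold and 1.39-fold between the highest and lowest array.

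**Figure D5:**
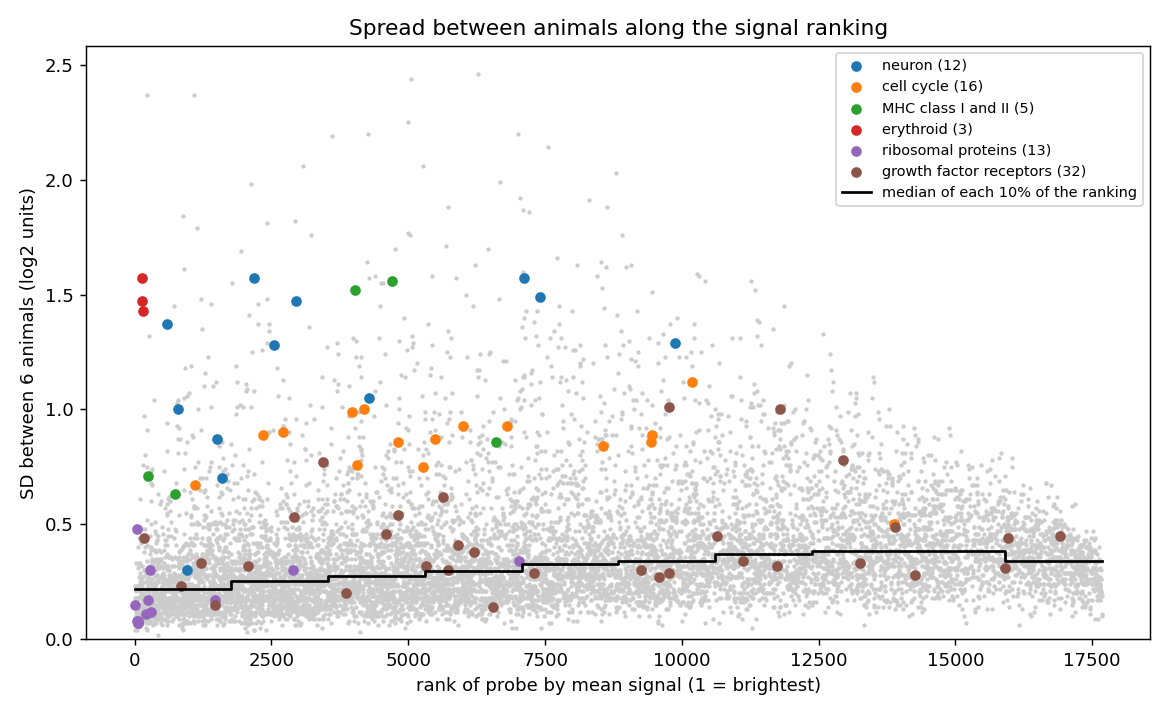
SD between the 6 Tlx-intact animals (log2 units) against signal rank for every detected gene, grey, with 6 lists in colour. The black line is the median SD of each 10% of the ranking, which runs from 0.219 to 0.386. Neuron, cell cycle, erythroid and MHC genes lie above the line almost throughout, ribosomal genes mostly near or below it.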

How the data were processed

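Total RNA of excised gliomas stood 4 h in RNAlater before Trizol extraction and was hybridised as biotinylated cRNA to Illumina arrays, per the labels' protocols. The authors deposited 2 tables. Per the file headers, the first gives an unnormalized intensity and a detection p-value per probe and array. The labels and headers do not say how the deposited p-values were obtained. The second, the authors' value table, holds intensities for 45134 probes with medians of 145.2 to 150.2 on the 6 arrays. Its scale is linear and uncentred, its normalization is not stated, and it served as an alternative.

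Symbols came from the platform annotation, updated through Entrez identifiers against RefSeq's GRCm38.p6. Of 45135 probes, 34772 had 1 symbol (34694 matched), 18 several and 10345 none. Means and ranks use unnormalized intensities. For SDs and deviations, the 6 arrays were corrected and normalized by limma 3.58.1 (R 4.3.3) with neqc and an offset of 16, which returns log2 values. The steps were tested on simulated data. Members and lists were chosen with earlier results of these data known. The naming rule covered the 20 brightest genes and the 12 most and 6 least variable of the upper 50%. It also covered the brightest, extreme-SD and undetected members of each list, the markers, and the growth factor family members. Not every gene it covered is described above. Other list members are named as examples, chosen after their values were seen. Replicates were numbered in deposition order. Alternatives were another detection rule, another scaling, probe averaging and leaving out each animal. No test between groups was run.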

Additional observations from a re-analysis of the deposited data

Results flagged for a closer look

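Among the 160 genes the naming rule covers, 10 (6.25%) had 1 animal far from the other 5, where chance alone marks about 1 in 20 groups, and 576 (5.73%) of the 10045 detected genes did. Values here are log2 after normalization. Replicate 4 was high for Atp5b, at 14.81 against 14.54 to 14.64 in the others, and for Hbegf, at 8.91 against 8.29 to 8.46. It was low for Mcm3, a replication helicase subunit, at 4.99 against 7.15 to 7.93. Replicate 5 was low for Igfbp5, at 11.52 against 12.25 to 12.67, for Dcn, at 8.68 against 10.63 to 11.56, and for the TGF-beta co-receptor Tgfbr3, at 5.68 against 6.19 to 6.45. The same animal was high for Kit, the stem cell factor receptor, at 9.74 against 8.84 to 9.12. Replicate 6 was low for Ptn, at 12.46 against 12.82 to 12.98, and high for Nrg3, at 6.69 against 5.93 to 6.17. Replicate 3 was low for the BMP receptor Bmpr1b, at 4.95 against 6.42 to 7.11. Of the 20 lists, 1 was marked in the same way, the MHC list, at 1.90 in replicate 1 against -0.68 to 0.01 in the others.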

How the results depend on the processing

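With a detection p-value below 0.01 in place of 0.05, 16396 probes, 9484 genes and 222 listed genes were detected, and with detection on at least 3 arrays, 23607 probes and 12522 genes. Under that looser rule the PDGF, EGF and FGF ligands detected numbered 13, choroid genes 8, monocyte and neutrophil genes 7, erythroid genes 5, lymphocyte genes 4 and genes outside the brain 1. Leaving out each animal gave 17824 to 18353 probes, 10105 to 10359 genes and 234 to 241 listed genes. The median SD of 0.322 became 0.342 without normalization between arrays, 0.183 in the authors' value table used without background correction, and 0.264 with no filter on detection. It was 0.304 to 0.334 with 1 animal left out. The cause of these moves was not tested. Of 160 named genes, ranks changed by over 1.5 times for 14 with the median signal, 15 with normalized values, 32 with the mean of a gene's detected probes, 0 in the authors' value table and 0 to 4 with 1 animal left out. Of 120 list deviations, 25 exceeded 0.5 in size, and none of these changed sign under the 3 alternatives. Of the 25, 19 still exceeded 0.5 in the authors' value table, 20 with all members that have a probe and 19 when probes were averaged per gene. The ranges of list deviations with an animal left out were added after seeing the data. No paired analysis was possible because 1 group is described and the labels give no shared replicate numbers. Signals near background limit the order of the lowest ranks.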

Other observations

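Some probes took 2 separate levels across the 6 animals, with a gap of over 2 log2 units between neighbouring values. There were 245 such probes (0.543% of all). In 99 of them replicates 1 and 2 were high and the other 4 low, with median signals of 580 and 148 units. These 99 probes name 81 genes on 17 chromosomes. Of the 41 genes among them with another detected probe, 3 had another probe split in the same way by over 1 log2 unit. Fcer1g, a signalling chain of Fc receptors, gave 5305, 2849.8, 130.1, 129, 146 and 189 units in replicates 1 to 6. Another probe of Mcm6 gave 1087, 1181, 177, 145, 139 and 160.5 units, while the brightest Mcm6 probe gave 786, 792, 581, 263, 773 and 347 units, so probes of this gene disagree. A further 62 probes were low in replicate 3 alone, naming 43 genes, of which 12 had another detected probe and 7 had one split in the same way. Syt1, Stmn2, Gad2 and the haemoglobin genes are among these. Every other pattern held 16 probes or fewer. The labels give no scan date or array position, and the cause was not tested.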
